A study of Mus musculus with 9 samples.

Results

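The enzymes described here are those of the pentose phosphate pathway and of gluconeogenesis in mouse embryonic stem cells. The members were taken from the deposited count table by symbol, and 10 genes of 23366 rows matched: G6pdx, Pgls and Pgd of the oxidative branch, Rpia, Rpe, Tkt and Taldo1 of the non-oxidative branch, and Pck2, Fbp2 and G6pc3 of gluconeogenesis. All 10 passed the filter on low counts. RNA was compared between 3 libraries of Sirt6 knockout cells (Sirt6-KO) and 3 libraries of wild-type cells (WT). Both groups had the 129 SvJae F1 background and were at passage 21, in medium with serum and leukaemia inhibitory factor (LIF), and 3 further libraries of wild-type cells deprived of glucose were not analysed here. The labels do not say how the knockout was made, whether it is 1 clone, or whether replicates were separate cultures, so the p-values speak only to how far these libraries scatter, and that scatter could be technical.

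The pentose phosphate pathway branches off glycolysis at glucose 6-phosphate. Its oxidative branch makes NADPH, the reducing power for lipid synthesis and for defence against oxidants, and its non-oxidative branch interconverts sugar phosphates, so that ribose 5-phosphate can be drawn for nucleotides and the surplus returned to glycolysis. Gluconeogenesis runs against glycolysis through enzymes of its own, and embryonic stem cells, which divide fast and rely on glycolysis, draw on the pentose pathway for nucleotides. SIRT6, a histone deacetylase, is known in mouse as a repressor of glycolytic genes.

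Sirt6 itself had 12, 6 and 6 counts in the Sirt6-KO libraries and 348, 341 and 342 in the WT libraries, in the direction of the labels; which part of the gene was deleted is not given there. Total counts ran from 20107037 to 29267115 per library. All 8 pluripotency markers checked were above 1 CPM (the gene's counts scaled to a common library size) in every library. Their levels were not all alike between the groups. On the log2 scale, Tdgf1 (0.89), Dppa5a (0.76) and Sox2 (0.40) were higher in Sirt6-KO. Utf1 (-0.64), Pou5f1 (-0.46) and Nanog (-0.32) were lower, and Zfp42 (-0.04) and Esrrb (-0.12) overlapped. The summed level of 7 primitive endoderm markers was 31.7 to 50.6 CPM in Sirt6-KO and 240 to 273 CPM in WT, and that of 8 fibroblast markers was 26.9 to 33.9 CPM in Sirt6-KO and 3.93 to 4.75 CPM in WT. Tagln alone made up 18, 21.2 and 25.8 CPM of the Sirt6-KO sums. Thy1 (mean of 5.25 CPM in Sirt6-KO, 1.38 CPM in WT), Col1a1 (2.11 and 0.564 CPM) and Col1a2 (0.595 and 0.066 CPM) were higher in Sirt6-KO as well. Lum was at 0 in all 6 libraries, Postn was at 0 in WT, and Postn, Dcn and Col3a1 did not exceed 0.205 CPM in Sirt6-KO. The Y-linked genes Ddx3y, Uty, Eif2s3y and Kdm5d were higher and Xist lower in Sirt6-KO (for instance Ddx3y at 91.4 ± 9.54 CPM in Sirt6-KO and 7.74 ± 0.790 CPM in WT, and Xist at 4.06 ± 0.662 CPM in Sirt6-KO and 38.2 ± 6.23 CPM in WT; SD, n = 3). The part of these marker genes in the enzyme results was not tested, and values by chromosome are given further on. The sex-linked markers separated the groups in all 6 libraries. By design, then, loss of Sirt6 cannot be told apart from another difference between the cells of the groups. In bulk RNA, fewer cells of a type and less RNA per cell cannot be told apart.

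The enzymes did not move as a block. At an adjusted p under 0.05 (edgeR quasi-likelihood test, Benjamini-Hochberg over all 14988 tested genes), Taldo1, G6pc3, Rpe and G6pdx were higher in Sirt6-KO, Pgd, Pgls and Fbp2 were lower, and Tkt, Pck2 and Rpia did not pass. This is 70% of the 10 members, where 55.7% of all tested genes were called (27.9% higher and 27.8% lower), so that a call by itself sets these genes little apart from the rest of the transcriptome. The groups did not overlap in 8 of the 10, against 63.2% of tested genes. The median log2 fold change was 0.23 over the members and 0.01 over all tested genes. The calls of Pgd, Taldo1, Fbp2 and G6pc3 were kept in each of 18 alternatives, whereas those of G6pdx, Pgls and Rpe were lost in some. Of these alternatives, 1 was the same fit read at an adjusted p under 0.01, and the others were separate fits. Without WT replicate 1, 2 or 3 the number of members called higher was 2 in each case.

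**Figure D1:**
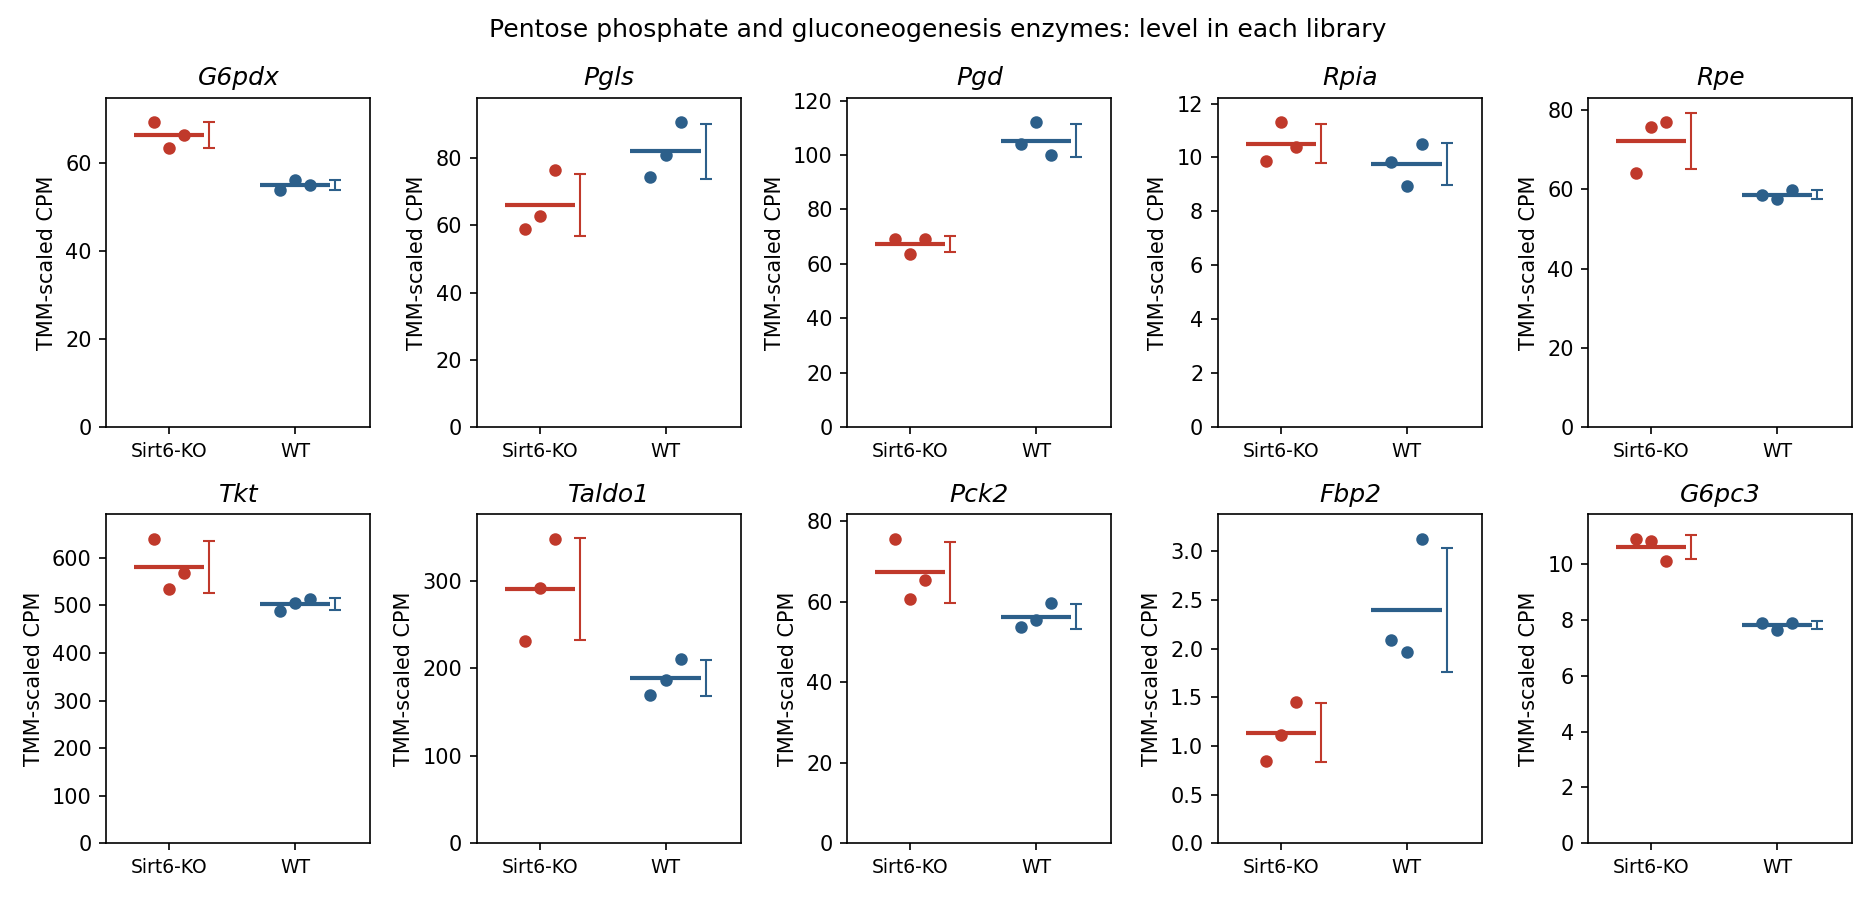
Level of each of the 10 enzyme genes in each library, in CPM scaled by trimmed mean of M values (TMM) factors, with Sirt6-KO libraries on the left and WT libraries on the right of each panel. Points are single libraries, horizontal lines are means and bars are SD (n = 3). The Pgd points of the groups lie well apart (63.8 to 69.0 against 100 to 112 CPM), while those of Rpia and Pgls overlap.

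The 2 dehydrogenases of the oxidative branch went in opposite directions. G6pdx encodes glucose-6-phosphate dehydrogenase, the enzyme that commits glucose to the pathway and makes its first NADPH. It had 69.1, 63.3 and 66.2 CPM in Sirt6-KO against 53.8, 56.0 and 54.8 CPM in WT. Every Sirt6-KO library was above every WT library, and the log2 fold change was 0.27 ± 0.09 (SE), with an adjusted p of 0.0235 (edgeR). The call ended without WT replicate 1, 2 or 3 (adjusted p of 0.0946, 0.0876 and 0.088), the fold change staying between 0.25 and 0.30. G6pdx shares 13.6% of its annotated exon bases with Ikbkg on the opposite strand, and Ikbkg was higher as well (0.36 ± 0.11), so reads of this stretch cannot be assigned without a stated strand setting.

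Pgd encodes the dehydrogenase of phosphogluconate, which makes the second NADPH and releases the pentose phosphate. Its level was 69.0, 63.8 and 69.0 CPM in Sirt6-KO and 104, 112 and 100 CPM in WT. The groups were far apart relative to their spread. Pgd fell by 0.64 ± 0.09 on the log2 scale (adjusted p of 0.000162), a 1.56-fold lower level, and the value lay between -0.69 and -0.52 over the 18 alternatives.

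Because both transcripts were read in the same libraries, their ratio does not depend on how libraries were scaled. Per kilobase of transcript, the log2 ratio of Pgd to G6pdx was -0.46, -0.45 and -0.40 in Sirt6-KO and 0.49, 0.53 and 0.41 in WT. Per kilobase, Pgd was thus the lower of the pair in each knockout library and the higher in each wild-type library. The order in Sirt6-KO rests on the annotated lengths. Before length scaling, Pgd had 69, 63.8 and 69 CPM there, and G6pdx had 69.1, 63.3 and 66.2 CPM. With transcript lengths averaged over annotated isoforms, the mean levels kept the per-kilobase order (42.0 for Pgd and 52.6 for G6pdx in Sirt6-KO, 65.6 and 43.6 CPM per kb in WT). The difference in log2 ratio between the groups does not depend on these lengths. The difference of -0.91 had an exact two-sided permutation p of 0.10, the smallest that 3 against 3 allows (adjusted p of 0.157 over the 11 ratios and shares tested).

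Pgls encodes the lactonase that acts between these dehydrogenases. It had 58.8, 62.9 and 76.4 CPM in Sirt6-KO and 74.5, 80.8 and 90.6 CPM in WT, with Sirt6-KO replicate 3 above the lowest WT library. Its log2 fold change of -0.31 ± 0.12 passed narrowly (adjusted p of 0.0473). It did not pass without Sirt6-KO replicate 1 (0.0677) or 2 (0.154), without WT replicate 1 (0.0593), 2 (0.101) or 3 (0.186), or with total counts as the scaling (-0.19, adjusted p of 0.178). The gene shares 20.6% of its exon bases with Fam129c on the same strand, which was at 4.84 ± 1.06 CPM in Sirt6-KO and 6.54 ± 0.990 CPM in WT (SD, n = 3; adjusted p of 0.0721).

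In the non-oxidative branch no member fell, and Taldo1 moved most. Taldo1 encodes transaldolase, which with transketolase links pentose phosphates back to glycolysis. It had 231, 292 and 348 CPM in Sirt6-KO against 169, 187 and 210 CPM in WT. The Sirt6-KO libraries were all above the WT libraries but spread widely, and the log2 fold change was 0.62 ± 0.15, a 1.54-fold higher level (adjusted p of 0.00428). The short noncoding RNA Rmrp varied among the Sirt6-KO libraries in the same order, at 7790, 10400 and 17300 CPM, against 7390, 8220 and 7910 CPM in WT. In WT the order of Rmrp was not that of Taldo1. Pgls, Dppa5a and Rpph1 also followed this order in Sirt6-KO, and a link between Rmrp and Taldo1 was not tested. After a length and GC trend was taken out of each library, the Taldo1 change was 0.56 (adjusted p of 8.92e-05). Without Sirt6-KO replicate 3 it was 0.45, and without Sirt6-KO replicate 1 it was 0.77.

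Tkt, which encodes transketolase, the thiamine-dependent enzyme of this branch, had the highest CPM of the members. It stood at 640, 534 and 567 CPM in Sirt6-KO and 489, 505 and 513 CPM in WT. The groups did not overlap, yet the difference of 0.21 ± 0.11 did not pass the test (adjusted p of 0.120). Tkt passed with total counts (0.33, adjusted p of 0.0316) and with the length and GC trend removed (0.21 ± 0.06, adjusted p of 0.00975), and without Sirt6-KO replicate 1 its value was 0.14.

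Rpe and Rpia act on ribulose 5-phosphate, the epimerase RPE leading to xylulose 5-phosphate and the isomerase RPIA to ribose 5-phosphate. Rpe had 64.1, 75.8 and 76.9 CPM in Sirt6-KO and 58.6, 57.6 and 59.9 CPM in WT, without overlap (0.30 ± 0.10, adjusted p of 0.0260). Rpia had 9.85, 11.3 and 10.4 CPM in Sirt6-KO and 9.84, 8.95 and 10.5 CPM in WT, with overlapping groups (0.11 ± 0.12, adjusted p of 0.464). The Rpe value depended on the processing, and was 0.05 (adjusted p of 0.486) with the length and GC trend removed. Its call also ended without Sirt6-KO replicate 2 (0.0949) or 3 (0.0732) and without WT replicate 1 (0.0845), 2 (0.113) or 3 (0.0729). Rpe shares 17.9% of its exon bases with Kansl1l on the opposite strand, which was lower in Sirt6-KO (-0.38 ± 0.12).

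**Figure D2:**
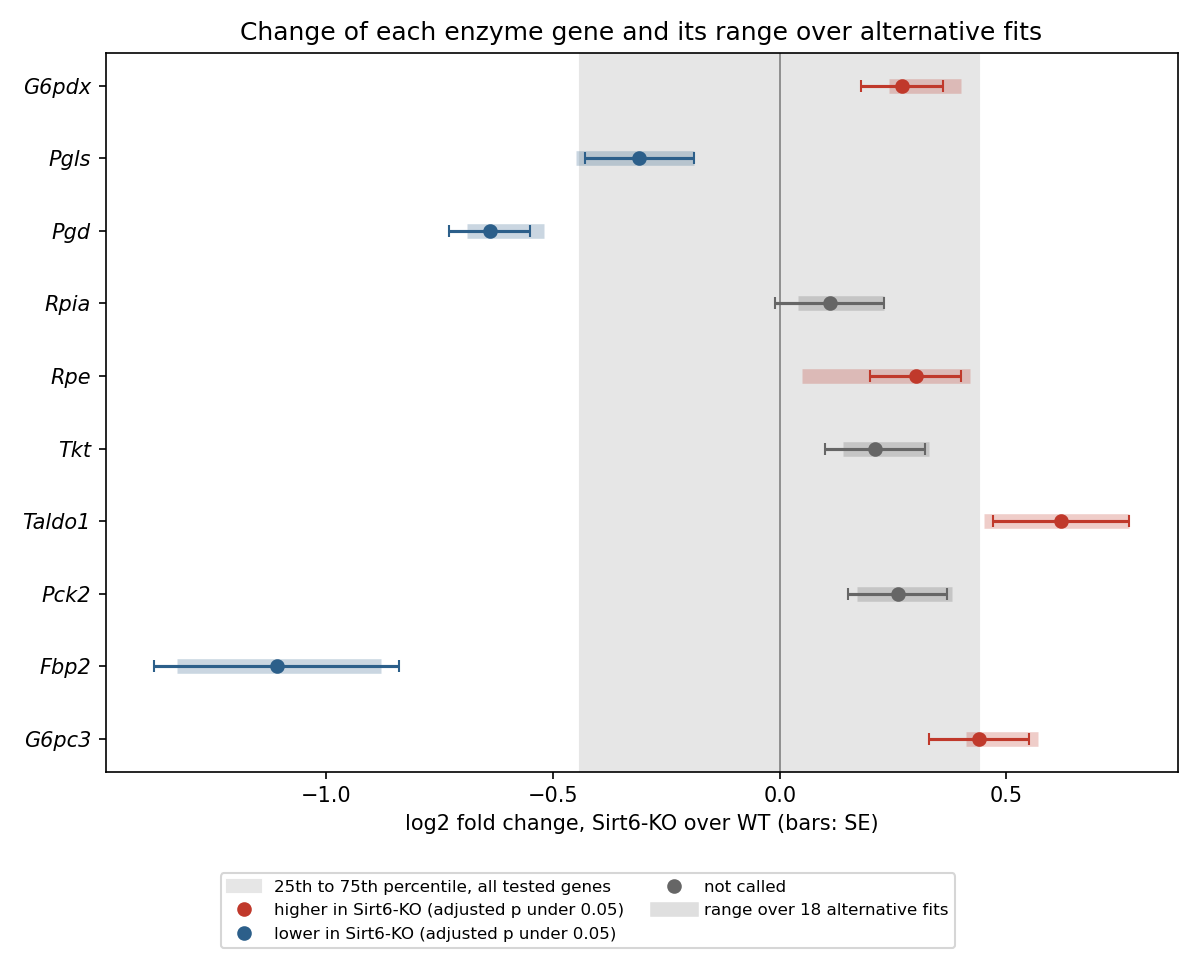
Log2 fold change of each enzyme gene, Sirt6-KO over WT, with its standard error (thin bars) and the range over 18 alternatives (wide pale bars), 1 of which is the main fit at a stricter threshold. The grey band spans the 25th to 75th percentile of all tested genes, -0.44 to 0.44. Pgd, Taldo1 and Fbp2 lie outside the band at -0.64, 0.62 and -1.11, G6pc3 lies on its edge at 0.44, and the other members lie inside it.

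The gluconeogenic members went both ways. Fbp2 encodes the muscle form of fructose bisphosphatase, which reverses the phosphofructokinase step. It was a rare transcript, with 27, 27 and 29 counts in Sirt6-KO and 56, 47 and 81 in WT, or 0.85, 1.11 and 1.45 CPM against 2.09, 1.97 and 3.13 CPM. The groups did not overlap, and Fbp2 fell by 1.11 ± 0.27 on the log2 scale (adjusted p of 0.00436). This was the largest change among the members in size, greater than that of 81.1% of tested genes.

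G6pc3 encodes the broadly expressed catalytic subunit of glucose 6-phosphatase. It had 10.9, 10.8 and 10.1 CPM in Sirt6-KO and 7.90, 7.65 and 7.88 CPM in WT. Both groups were tight and separate, the log2 fold change was 0.44 ± 0.11 (adjusted p of 0.00558), and without each library in turn it stayed between 0.42 and 0.46.

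Pck2 encodes the mitochondrial phosphoenolpyruvate carboxykinase, which makes phosphoenolpyruvate from oxaloacetate. It had 75.6, 60.6 and 65.4 CPM in Sirt6-KO and 53.6, 55.5 and 59.7 CPM in WT. The libraries did not overlap, but the change of 0.26 ± 0.11 missed the threshold (adjusted p of 0.0614). The choice of setting decided the call, since Pck2 passed with DESeq2 size factors (0.26, adjusted p of 0.046), with total counts (0.38, 0.0190), on genes averaging 1 CPM or more (0.28, 0.0404), without Sirt6-KO replicate 2 (0.33, 0.0458) and with the length and GC trend removed (0.35, 0.00146). Without Sirt6-KO replicate 1 the change was 0.17 (adjusted p of 0.0821).

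In the authors' deposited table, 6 of the 10 members passed an adjusted p of 0.05, where 45.8% of its genes with an adjusted p did. For Pgls, Pck2 and Tkt the authors' deposited table gives adjusted p-values of 0.0576, 0.0630 and 0.0857, and for Rpia 0.587. The 6 were Pgd, Taldo1, Fbp2, G6pc3, G6pdx and Rpe, with the same signs as above.

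Promoter sequence is shown for the gluconeogenic members and for Taldo1, since Fbp2 and G6pc3 changed in opposite directions, Taldo1 rose most, and Pck2 is known in human cells as a target of the stress regulator ATF4, whose own transcript changed. The bases are those upstream of the RefSeq start (build GRCm38.p6, from the RefSeq table) that lie outside annotated exons, 5′ to 3′ on the gene's strand, with motif matches in capitals. They cover chr14:55540016-55540265 (plus strand) for Pck2, chr7:141391910-141392159 (plus strand) for Taldo1, chr13:62858423-62858650 (minus strand) for Fbp2 and chr11:102189449-102189619 (plus strand) for G6pc3.
Pck2: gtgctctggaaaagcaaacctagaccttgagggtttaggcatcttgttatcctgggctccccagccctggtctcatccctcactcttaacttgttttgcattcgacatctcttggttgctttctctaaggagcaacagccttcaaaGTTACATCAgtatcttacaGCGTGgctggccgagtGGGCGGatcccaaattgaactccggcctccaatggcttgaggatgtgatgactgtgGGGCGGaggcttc
Taldo1: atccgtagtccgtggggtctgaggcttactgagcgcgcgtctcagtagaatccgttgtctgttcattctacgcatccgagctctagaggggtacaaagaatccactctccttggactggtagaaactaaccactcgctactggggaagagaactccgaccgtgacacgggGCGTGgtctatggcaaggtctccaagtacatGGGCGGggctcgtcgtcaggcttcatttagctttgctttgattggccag
Fbp2: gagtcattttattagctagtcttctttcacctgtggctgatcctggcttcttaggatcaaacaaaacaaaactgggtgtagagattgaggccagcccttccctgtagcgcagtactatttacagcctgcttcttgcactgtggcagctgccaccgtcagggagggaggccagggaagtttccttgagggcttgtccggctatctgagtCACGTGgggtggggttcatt
G6pc3: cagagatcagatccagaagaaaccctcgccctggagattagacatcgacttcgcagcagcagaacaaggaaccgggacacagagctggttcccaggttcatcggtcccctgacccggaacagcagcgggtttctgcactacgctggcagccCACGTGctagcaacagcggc

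Both strands of the 250 bases before each RefSeq start were searched, with the share of 32851 promoters as background. That background counted every start site, whether or not its gene was expressed here. A member, by contrast, was counted if any of its start sites matched, and all members were expressed, so the shares are not strictly alike. The composite motif bound by ATF4 with CEBP factors, TGATGNAAN, matched on the minus strand of the Pck2 window as GTTACATCA; of the 10 members only Pck2 had a match, as did 3.44% of promoters. The E-box, CACGTG, stood in the windows of Fbp2, which fell, and G6pc3, which rose, and in 6.02% of promoters. In G6pc3 it stood at -99 and at -79 from the start. Only the first of these is printed above, since the last 79 bases of that window lie in annotated exons. The shorter hypoxia response core ACGTG, which lies within the E-box, was found in 2 members and 16.6% of promoters. Another such core, GCGTG, was found in 7 members including Taldo1 and in 28.2% of promoters. The box bound by SP factors, GGGCGG, was found in 8 members including Taldo1 and in 32.7% of promoters. The core of the antioxidant response element, TGACNNNGC, matched in G6pdx alone (10.2% of promoters), and the TATA box, searched as TATAAA, in 0 of the 10 (12.4% of promoters). A match is a description of the letters and not a bound site.

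Levels could be set in order only per length of transcript. Per kilobase of the longest annotated transcript, the Sirt6-KO libraries had Taldo1 (213 ± 43.1 CPM per kb) and Tkt (180 ± 16.7) at the top, and these overlapped. Rpe (26.5 ± 2.61), G6pdx (25 ± 1.1) and Pgls (24.6 ± 3.42) came next and overlapped as well, then Pgd (18.5 ± 0.816), Pck2 (14.5 ± 1.65), G6pc3 (6.75 ± 0.279), Rpia (2.89 ± 0.200) and Fbp2 (0.838 ± 0.223). In WT, Tkt (156 ± 3.80) and Taldo1 (138 ± 15.0) overlapped at the top, followed by Pgls (30.5 ± 3.02) and Pgd (28.8 ± 1.61), which overlapped, Rpe (21.6 ± 0.416), G6pdx (20.7 ± 0.425), Pck2 (12.2 ± 0.678), G6pc3 (4.96 ± 0.0861), Rpia (2.68 ± 0.209) and Fbp2 (1.77 ± 0.472; SD, n = 3 throughout). Per kilobase, Pgd lay below G6pdx in the Sirt6-KO libraries and above it in WT, with no overlap of the pair in either group. The order of the pair in Sirt6-KO rests on the lengths, since their CPM overlapped there. With mean in place of longest transcript length, Tkt led in both groups (342 against 284 CPM per kb for Taldo1 in Sirt6-KO, 296 against 184 in WT). The middle of the order changed with that length as well. In Sirt6-KO, G6pdx (52.6), Pgls (49.5) and Pgd (42.0 CPM per kb) then stood above Rpe (37.4), and in WT Pgd (65.6) stood above Pgls (61.4) and G6pdx (43.6) above Rpe (30.4).

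**Figure D3:**
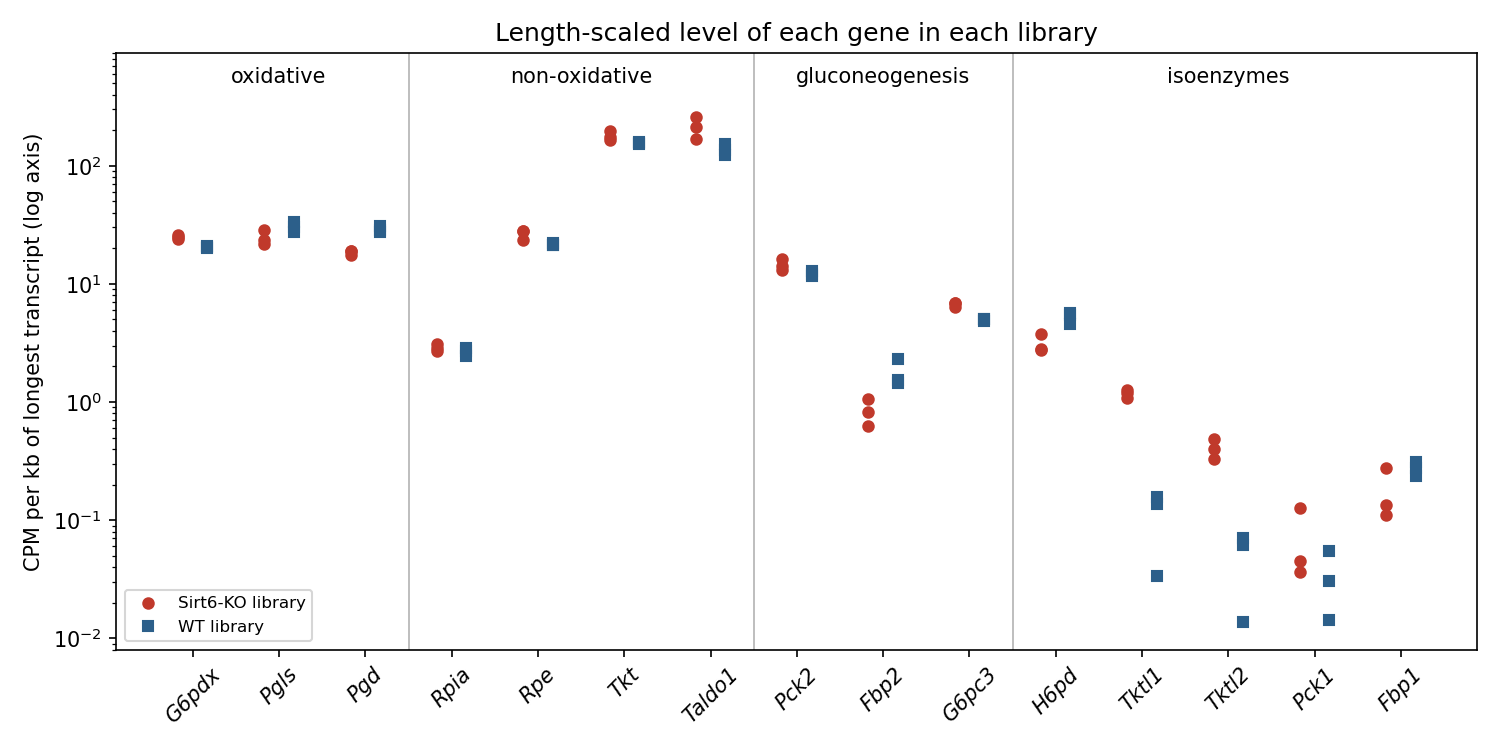
Length-scaled level of each gene in each library, in CPM per kb of the longest annotated transcript on a log axis, for the 10 members and 5 isoenzyme genes; circles are Sirt6-KO libraries and squares WT libraries, and G6pd2, G6pc and G6pc2 are left out because they had libraries at 0. Tkt and Taldo1 lie above all other genes, and Tktl1 and Tktl2 show the widest gaps between the groups.

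The balance of the branches was read as ratios within each library. The summed non-oxidative over the summed oxidative transcripts, per kb, had a log2 ratio of 2.56, 2.66 and 2.68 in Sirt6-KO and 1.97, 1.96 and 2.05 in WT. This is a shift of 0.64 toward the non-oxidative side, most of whose sum is Tkt and Taldo1. The log2 ratio of Taldo1 to Pgd was 3.16, 3.61 and 3.75 in Sirt6-KO and 2.12, 2.17 and 2.49 in WT, a difference of 1.25. That of Pck2 to Fbp2 was 4.70, 4.01 and 3.72 in Sirt6-KO and 2.91, 3.05 and 2.48 in WT, a difference of 1.33. None of these overlapped, and each had the smallest possible exact permutation p of 0.10 (adjusted p of 0.157). The ratio of Taldo1 to Tkt did overlap, at -0.23, 0.37 and 0.54 in Sirt6-KO and -0.29, -0.19 and -0.05 in WT (exact permutation p of 0.30).

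**Figure D4:**
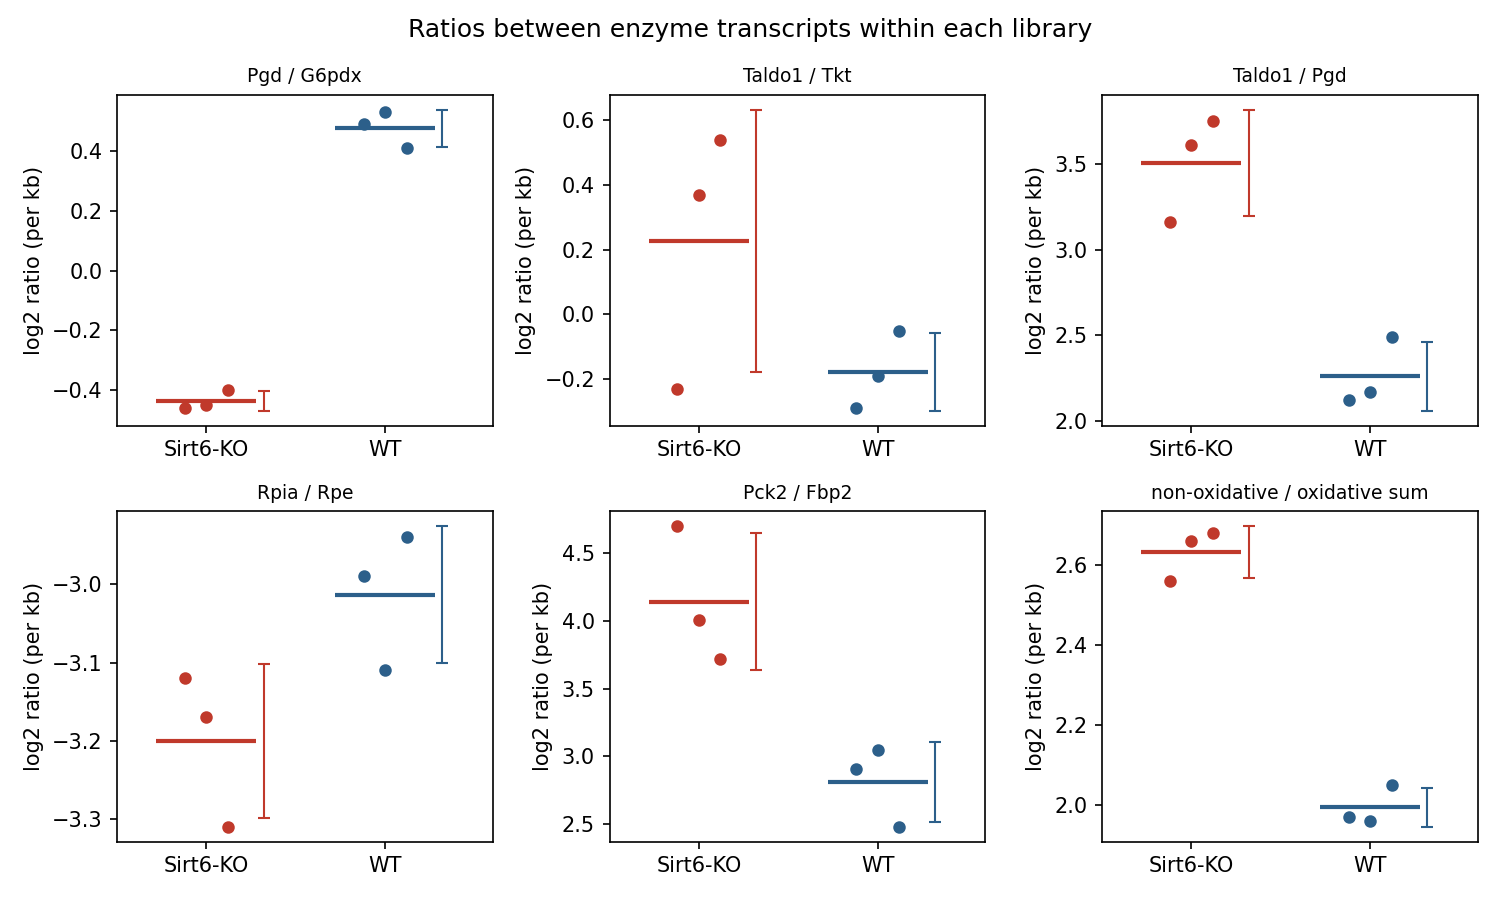
Log2 ratios between enzyme transcripts within each library, per kb of the longest transcript, with Sirt6-KO libraries on the left and WT libraries on the right of each panel; lines are means and bars SD (n = 3), and the vertical axes differ and do not start at 0. The Pgd to G6pdx ratio is below 0 in all Sirt6-KO libraries and above 0 in all WT libraries. Its sign in Sirt6-KO rests on the transcript lengths used.

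Isoenzyme genes were set beside 5 of the members as transcript counts. Pck2 was read almost alone: Pck1, the cytosolic carboxykinase gene, had 16 counts in Sirt6-KO beside 5189 of Pck2, and 7 in WT beside 4310. G6pc3 likewise gave 99.5% of the counts of the 3 glucose 6-phosphatase genes in Sirt6-KO (exact 95% interval 98.8% to 99.9%) and 99.5% in WT (98.6% to 99.9%; the intervals cover counting error only). G6pd2, a retrogene copy of G6pdx, had 2 counts in Sirt6-KO and 0 in WT, so few of the counts assigned to either gene went to the copy.

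H6pd, which encodes the dehydrogenase of hexose 6-phosphate in the endoplasmic reticulum, fell. It had 17.9, 13.2 and 13 CPM in Sirt6-KO against 26.7, 25.7 and 21.6 CPM in WT (-0.74 ± 0.14, adjusted p of 0.00128). The share of G6pdx in the length-scaled sum of G6pdx, H6pd and G6pd2 was therefore 89.0% ± 1.43 in Sirt6-KO and 79.9% ± 1.87 in WT (SD, n = 3).

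The transketolase-like genes Tktl1 and Tktl2 were nearly silent in WT and rose. Tktl1, on the X chromosome, had 85, 71 and 63 counts in Sirt6-KO and 9, 2 and 10 in WT (3.38 ± 0.32, adjusted p of 8.86e-06). Tktl2, on chromosome 8, had 85, 54 and 36 counts in Sirt6-KO and 2, 8 and 10 in WT (3.09 ± 0.38, adjusted p of 4.85e-05). These were larger changes than that of any member, at low level: Tkt still made up 99.1% ± 0.0823 of the length-scaled sum of the 3 genes in Sirt6-KO and 99.9% ± 0.0408 in WT. Fbp1, the liver form beside Fbp2, had 13, 4 and 4 counts in Sirt6-KO and 11, 11 and 9 in WT and did not pass (adjusted p of 0.278). The share of Fbp2 in the length-scaled sum of both ran from 69.4% to 88.8% in Sirt6-KO and from 82.4% to 90.8% in WT.

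Since whole chromosomes differed between the groups, each member was set beside its surroundings. The median log2 fold change was 0.20 on the X chromosome, -0.24 on chromosome 8 and -0.30 on chromosome 1. G6pdx (0.27) and Pgls (-0.31) lay near the medians of their chromosomes, X and 8, and near those of their 20 nearest tested genes (0.34 and -0.23). Rpe, on chromosome 1, was at 0.30, opposite in sign to the medians of its chromosome and of its neighbours (-0.20). Taldo1, Pgd, Fbp2 and G6pc3 lie on chromosomes 7, 4, 13 and 11, whose medians were 0.07, 0.04, 0.07 and 0.04. Their nearest 20 genes had medians of 0.10, -0.20, -0.29 and 0.22, smaller in size than each gene's own change and of the same sign. Scaling of libraries without chromosomes 1, 8, X and Y left the 7 member calls as they were.

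**Figure D5:**
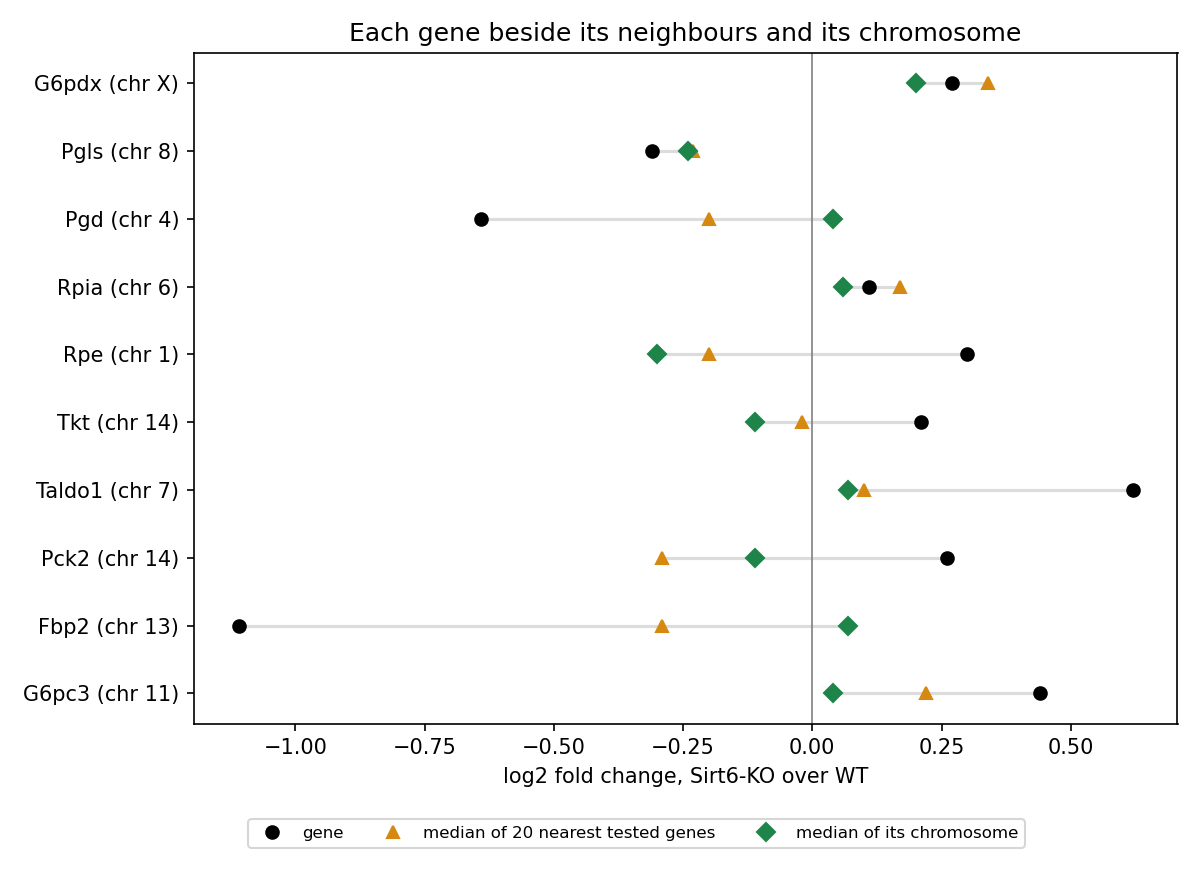
Log2 fold change of each enzyme gene (circle), median of its 20 nearest tested genes (triangle) and median of all tested genes on its chromosome (diamond), Sirt6-KO over WT. G6pdx and Pgls lie close to both medians, while Taldo1 at 0.62, Pgd at -0.64 and Fbp2 at -1.11 lie well outside them.

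Among the other genes of pentose and ribose use, 5 of 11 tested were higher and 3 lower, with a median of 0.31 (72.7% called). Beside this and the lists that follow, 55.7% of all tested genes were called, 27.9% higher and 27.8% lower. Besides the transketolase-like genes, Prps2, a phosphoribosyl pyrophosphate synthetase that takes ribose 5-phosphate into nucleotides, rose to 60.5 ± 3.24 CPM in Sirt6-KO, against 38.3 ± 0.852 CPM in WT (adjusted p of 0.000123). The more abundant synthetase gene Prps1 did not pass, at 129 ± 16.7 CPM in Sirt6-KO and 121 ± 5.34 CPM in WT (0.09 ± 0.11, adjusted p of 0.531, edgeR). Idnk and Prpsap2 (both 0.48) were higher too. The 3 lower genes were H6pd, Rbks (-1.31 ± 0.24) and Prpsap1 (-0.33 ± 0.09). In nucleotide synthesis itself, 4 of 18 genes were higher and 5 lower, with a median of -0.16 (50% called). Adssl1, Ctps2 and Impdh1, enzymes of the late steps of purine and pyrimidine synthesis, rose by 1.55 ± 0.19, 0.79 ± 0.11 and 0.70 ± 0.11, as did Impdh2 (0.29 ± 0.11). The 5 that fell were Cad (-0.56), Aprt (-0.53), Atic (-0.51), Dhodh (-0.36) and Adsl (-0.35). Adssl1 was rare, at 3.43 CPM in Sirt6-KO and 1.17 CPM in WT, and the abundant genes of the same steps, Adss (-0.15) and Ctps (0.17), did not pass. Of 3 other gluconeogenic genes tested, 1 was higher, the pyruvate carboxylase gene Pcx (0.43 ± 0.15, adjusted p of 0.0308); its call ended without WT replicate 1 (0.0876), 2 (0.059) or 3 (0.0914). Pcx had 47.2, 32.3 and 31.7 CPM in Sirt6-KO and 26.6, 29.2 and 27.1 CPM in WT, and without Sirt6-KO replicate 1 its change was 0.22 (adjusted p of 0.0343).

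NADPH has further sources and users, and these were mixed as well. In a list of 11 other genes, of NADPH producers and folate enzymes, 3 were higher and 4 lower. Its median was 0.04, and 63.6% of it were called, against 55.7% of all tested genes. Not every folate enzyme in it makes NADPH, Mthfd1l among them, so the list does not count NADPH sources alone. The cytosolic isocitrate dehydrogenase gene Idh1 had 201 ± 16.8 CPM in Sirt6-KO and 107 ± 6.78 CPM in WT, and the folate enzymes Aldh1l1 and Mthfd2l rose by 1.95 ± 0.20 and 1.35 ± 0.16, to 9.86 and 9.27 CPM in Sirt6-KO, against 2.56 and 3.62 CPM in WT. The more abundant folate enzyme genes Mthfd2 (79.0 CPM in Sirt6-KO, 129 CPM in WT, -0.71 ± 0.09) and Mthfd1l (143 CPM in Sirt6-KO, 212 CPM in WT, -0.56 ± 0.11) fell, as did the malic enzyme genes Me1 (-0.98 ± 0.12) and Me3 (-1.10 ± 0.29). Of 8 NADPH-dependent reductases 3 were higher and 3 lower (median 0.08, 75% called). Gsr, which reduces glutathione with NADPH, had 111 ± 1.21 CPM in Sirt6-KO and 241 ± 11.1 CPM in WT (-1.11 ± 0.09, adjusted p of 2.92e-06). Cbr3 (-0.62 ± 0.14) and Txnrd1 (-0.36 ± 0.10) were lower too, and Blvrb (0.73 ± 0.15), Txnrd3 (0.55 ± 0.12) and Cbr1 (0.42 ± 0.15) were higher.

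Of 10 tested regulators tied to these enzymes, 1 was higher and 6 lower, with a median of -0.59. This is 70% called, against 55.7% of all tested genes. Atf4, the stress regulator named above, had 117, 125 and 150 CPM in Sirt6-KO and 296, 293 and 314 CPM in WT (-1.21 ± 0.11, adjusted p of 7.46e-06), while Pck2 was at 0.26. Myc, which drives growth genes, was at -1.81 ± 0.11. The gene listed under the older symbol 9630033F20Rik (Tigar, a phosphatase that directs glucose toward the pentose pathway) was at -0.82 ± 0.09. Nfe2l2, the gene of the antioxidant regulator NRF2, was lower too (-0.70 ± 0.09), as was that of its inhibitor, Keap1 (-0.88 ± 0.11), and so was Trp53 (-0.49 ± 0.09). The 1 regulator called higher was Mlxipl, which encodes the glucose-responsive factor ChREBP, at 5.06 ± 0.877 CPM in Sirt6-KO and 2.01 ± 0.443 CPM in WT (SD, n = 3; 1.35 ± 0.20 on the log2 scale).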

How the data were processed

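The authors deposited whole-number read counts per gene symbol (23366 rows, no normalization) for 3 Sirt6-KO and 3 WT libraries. A second deposited table holds the authors' comparison; per the file headers its values are a mean signal per gene (size-factor scaled), log2 fold changes and their errors, a Wald score, and raw and adjusted p-values. TopHat2 2.0.10, HTSeq 0.6.1, DESeq2 and mm9 are named, without roles, per the submitters' processing notes; strand setting and annotation were not given in the sources used here.

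Counts were tested with the quasi-likelihood functions of edgeR 4.0.16 under R 4.3.3 (glmQLFit, then glmQLFTest; two-sided, TMM, filterByExpr, 14988 genes tested, common biological coefficient of variation 0.115). Adjusted p-values are Benjamini-Hochberg values over all tested genes. The SE is the log2 fold change over the root of F. CPM use TMM-scaled library sizes. The test was checked on counts simulated with the same variation for every gene, with 50 genes changed at each size. It recovered 62% of genes changed 1.5-fold and 96% of those changed 2-fold, and 5.79% of calls fell on unchanged genes. Smaller changes were not simulated, and far fewer genes changed there than were called in the data. Exact permutation tests covered all 20 splits of 3 against 3. Transcript lengths, GC content (known for 98.9% of tested genes), chromosomes and gene order came from GENCODE M21 (GRCm38), where 21706 rows matched directly and 1273 through an older symbol; this is not the authors' build, so only promoter coordinates are given. Alternatives included limma-voom (limma 3.58.1) and DESeq2 1.42.0. The fit that removes the length and GC trend together with a replicate block, and the neighbouring genes, were chosen after seeing the data.

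All members are named; of each other list, up to 3 called genes with the smallest adjusted p are named by rule, plus isoenzymes; all further genes of those lists were chosen after their values were seen. Members and lists were chosen with earlier results of these data known. Every pair of libraries within a group differed by more than sampling noise. Chi-square over degrees of freedom ran from 3.85 to 11.7 for the WT pairs and from 21.8 to 93.4 for the Sirt6-KO pairs. Genes that share reads with overlapping genes or copies are uncertain.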

Additional observations from a re-analysis of the deposited data

How the results depend on the processing

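No member changed sign in any of 18 alternatives. The calls of Pgd, Taldo1, Fbp2 and G6pc3 held in all of them, and Rpia passed in 0. Pgls did not pass with DESeq2 size factors (-0.30), total counts (-0.19), a mean of at least 1 CPM (-0.29), the DESeq2 test (-0.30) or library sizes without Rn45s, Rmrp and Rpph1 (-0.30). Pck2 passed with DESeq2 size factors (0.26), total counts (0.38), a mean of at least 1 CPM (0.28), the length and GC trend removed (0.35) and library sizes without those 3 RNAs (0.27). Tkt passed with total counts (0.33) and with the trend removed (0.21), where Rpe did not (0.05); the cause was not tested. At an adjusted p under 0.01, G6pdx (0.27), Pgls (-0.31) and Rpe (0.30) did not pass, and 2 members were higher. With single libraries left out, members called higher numbered 2 to 4, and the fold changes ran from 0.25 to 0.30 for G6pdx, -0.45 to -0.23 for Pgls, 0.23 to 0.39 for Rpe and 0.17 to 0.33 for Pck2.

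The median log2 fold change of all tested genes was 0.13 with total counts and 0.01 with TMM. With total counts 62.2% of calls were higher in Sirt6-KO, against 50.1% with TMM. With total counts 6 members were higher and 2 lower, against 4 and 3 with TMM. Rn45s took 3.3% to 4.91% of all counts in the Sirt6-KO libraries and 7.54% to 9.23% in WT. With library sizes without Rn45s, Rmrp and Rpph1, Tkt did not pass (0.22, adjusted p of 0.0968, edgeR).

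Deviations from the group mean correlated at 0.208, -0.025 and 0.201 between same-numbered samples of the groups. They correlated at -0.216 between Sirt6-KO replicate 1 and WT replicate 3, and at -0.207 between Sirt6-KO replicate 3 and WT replicate 1. Deviations within a group of 3 depend on each other, so these values cannot decide whether the numbers pair the samples. With the replicate block, 9352 genes were called against 8345, and Pck2 passed (0.25). With the block and the length and GC trend removed, Pck2 (0.35) and Tkt (0.21) passed and Rpe did not (0.05). Depth limits Fbp2 most, at 83 counts over the Sirt6-KO libraries and 184 over WT.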
